A study of Mus musculus with 106 samples.

Results

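The comparison sets single primordial germ cells (PGCs) of the mouse at the Early/Mid-Bud stage (E/MB) against single PGC precursors at the preceding Late-Streak/0-Bud stage (LS/0B). Its members were chosen by their titles alone, as 8 E/MB PGCs and 17 LS/0B precursors, which makes 25 of the 106 cells profiled. Both groups were wild-type C57BL/6 cells, dissociated from embryo fragments that held germ cells or their precursors, and each cell's amplified cDNA was hybridised to an Affymetrix array of its own. The PGCs had been taken as positive for Blimp1 (the gene Prdm1) and stella (Dppa3), the precursors as positive for Blimp1 and Oct4 (Pou5f1), and a PCR for Blimp1 and fragilis (Ifitm3) screened the cells beforehand. Hoxb1 marked other groups of E/MB cells, among them a separate Blimp1-positive group. Differences in all these genes may follow in part from how cells were chosen and are not results. Since no embryo or litter is named for any cell, each group counts as 1 sample, no test over cells was made, and every difference given here describes these 25 cells.

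Mouse germ cells arise in the posterior epiblast, where BMP signals induce Prdm1, Prdm14 and Tfap2c in a few cells. These transcription factors shut off the mesodermal program that the neighbouring cells follow, restore the expression of pluripotency genes such as Sox2, and set the cells on a path to genome-wide removal of DNA methylation. Kit, a receptor tyrosine kinase, is the germ cells' sensor for the survival and migration factor Kit ligand, and Uhrf1 brings the maintenance methyltransferase Dnmt1 to newly replicated DNA.

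Kit, Sox2 and Uhrf1 were given as markers of this comparison. The 250 bases before the first annotated start of each are shown because a binding motif of a specification factor was searched in them. The sequences are from RefSeq on GRCm38.p6, plus strand, 5′ to 3′, at chr5:75574737-75574986 for Kit, chr3:34649745-34649994 for Sox2 and chr17:56303087-56303336 for Uhrf1. Capitals mark a match to GCCNNNGGC, the TFAP2 motif, or to AGNGAAAG, a PRDM1 motif, on either strand.
Kit: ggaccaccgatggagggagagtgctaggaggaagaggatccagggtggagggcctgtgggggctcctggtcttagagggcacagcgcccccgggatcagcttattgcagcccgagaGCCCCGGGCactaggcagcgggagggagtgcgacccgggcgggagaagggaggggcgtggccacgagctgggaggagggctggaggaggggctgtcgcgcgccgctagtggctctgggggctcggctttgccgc
Sox2: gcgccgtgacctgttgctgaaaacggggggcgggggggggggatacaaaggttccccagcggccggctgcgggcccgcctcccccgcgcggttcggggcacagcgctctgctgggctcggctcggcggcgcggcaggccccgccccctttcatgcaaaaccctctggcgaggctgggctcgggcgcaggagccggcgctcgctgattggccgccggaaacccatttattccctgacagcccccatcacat
Uhrf1: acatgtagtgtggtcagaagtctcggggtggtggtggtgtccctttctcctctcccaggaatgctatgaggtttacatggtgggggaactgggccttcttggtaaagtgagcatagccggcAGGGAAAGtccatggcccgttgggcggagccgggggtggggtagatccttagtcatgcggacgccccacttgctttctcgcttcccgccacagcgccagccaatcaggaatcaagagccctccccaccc
Kit held 1 TFAP2 match, GCCCCGGGC, which begins 134 bases before the start, and Uhrf1 held 1 PRDM1 match, AGGGAAAG, 129 bases before it. Sox2 held neither motif in this window. Of 32851 windows of the same length, 13.7% held the TFAP2 motif and 7.30% the PRDM1 motif, and no binding was measured here. Base composition differed among them, with a GC content of 70.8% for Kit, 72.0% for Sox2 and 59.6% for Uhrf1.

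Signals are MAS5 intensities on a log2 scale, with every signal under 70.2, the 90th percentile of background probe sets, raised to that floor of 6.13 log2. A gene was counted as detected in a cell where it exceeded the 95th percentile of that cell's own background probe sets, a limit between 94.9 and 146 signal units. PGCs had 10570 ± 872 probe sets detected (SD over 8 cells) and precursors 10589 ± 1057 (SD over 17 cells). At the 99th percentile these were 8026 ± 436 and 7279 ± 893, with 6551 ± 679 in the 8 precursors numbered 1 to 8 and 7926 ± 435 in the 9 numbered 14 to 24. All 8 PGCs expressed Y-linked genes and none Xist, whereas Xist was detected in 8 of 17 precursors, all numbered 14 or above. The 5′ minus 3′ signal of Gapdh, a measure of how far cDNA reached, ran from -0.49 to 0.060 in PGCs and from -2.37 to 0.04 in precursors. In precursors 14 to 24 it was between -1.58 and -0.51, below every PGC. For the spiked lys control it was between -3.91 and -2.82 in precursors 4, 6, 7 and 8 and no lower than -1.60 in the other 21 cells. Stage, sex, cDNA length and number set therefore move together in part, and their parts in the results cannot be told apart here. Of 156 named genes, 56 passed a size of 1 log2 unit against one of the sets numbered 1 to 8 and 14 to 24 and not against the other, 49 of them against precursors 1 to 8. Values against each set are given for some of these genes, and a value given alone is against all 17 precursors.

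A difference of 1 log2 unit or more between the group means was used for counting. Of 18193 genes, 539 passed it with the higher mean in PGCs (2.96%) and 484 with the lower mean (2.66%). Over the 9780 genes that 5 or more of the 25 cells expressed, these shares were 5.41% and 4.95%. The shares of all genes also depended on the precursors used. They were 5.62% higher and 3.19% lower against precursors 1 to 8, and 2.08% and 3.63% against 14 to 24. Against precursors without Xist they were 5.24% and 3.13%, and with the precursors of low lys values left out 2.55% and 2.59%. Counts for a list against one of these sets include this shift over all genes. In the lists below, higher and lower mean past this size. Kit, Sox2 and Uhrf1 were given as markers with their directions, so their calls were known beforehand and lend no support to the counts that hold them. The median difference over all genes was 0. Complete separation was rare. In 1 gene, 0.0055% of all, the lowest PGC lay above the highest precursor, and that gene was the selected Dppa3. In 4 genes, 0.022%, the highest PGC lay below the lowest precursor. The largest of these 4 differences was that of Tmem215, at 8.17 ± 0.24 in PGCs and 9.32 ± 0.43 in precursors. Its other probe sets lay at the floor. The others were Prr27, Prrt3 and 4931428F04Rik, all near the detection limits. Their means were 6.91, 6.55 and 6.83 in PGCs and 7.69, 7.32 and 7.41 in precursors. At the 99th percentile limit, Prr27 was detected in 2 precursors and 0 PGCs, and Prrt3 and 4931428F04Rik in no cell of either group. Differences are those of a gene's brightest probe set. Of 38 named genes past this size with another probe set detected in at least 10 of the 25 cells, 16 had one that did not pass it in that direction. None of the 4 genes without overlap is a member of a list used here, and they are named because of these values.

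Kit was near background in most precursors and strong in most PGCs. The 8 PGCs read 10.86, 11.05, 11.05, 7.70, 10.22, 9.43, 10.76 and 10.95 log2, and the 17 precursors ran from 6.13 through a median of 6.13 to 9.56, with Kit detected in 4. PGC 4 was low, and 3 precursors reached or passed it. The highest precursor also passed PGC 6, and the other 6 PGCs lay above all precursors. The mean difference was 3.52, or 3.84 against precursors 1 to 8 and 3.24 against 14 to 24. A further probe set for Kit was dim in both groups, detected in 1 PGC and 0 precursors, with a difference of 0.14. Kit ligand (Kitl) was on in 7 of 8 PGCs and 14 of 17 precursors, with a difference of 0.20 (0.86 against precursors 1 to 8 and -0.39 against 14 to 24).

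Sox2, a core pluripotency factor with Oct4, was detected in all 8 PGCs, at 9.43 to 11.79 with a median of 11.35. In precursors it ran from 6.13 through a median of 6.13 to 11.57, and it was detected in 7 of 17. The precursor distribution had a gap, since the 7 cells with Sox2 read 9.78 or more and the other 10 lay at the floor. The difference of means was 3.20, but 4.54 against precursors 1 to 8, of which 1 had the transcript, and 2.00 against 14 to 24, of which 6 had it. All 7 Sox2-positive precursors lay at or above the lowest PGC. Precursors 2, 18, 19, 20, 22 and 24 had both Sox2 and Dppa3, precursor 21 had Sox2 alone, and precursors 3 and 16 had Dppa3 alone. Since stella (Dppa3) was a criterion for the PGCs alone, the Sox2 difference may follow in part from selection, which was not tested.

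Uhrf1 differed in the opposite direction. All 17 precursors had it, from 8.29 through a median of 10.06 to 10.89, whereas 6 of 8 PGCs lay at the floor and PGCs 4 and 8 read 8.11 and 9.19. The difference was -3.08, and it stayed between -3.48 and -2.79 against any of the precursor sets (1 to 8, 14 to 24, or those without Xist). The highest PGC overlapped the lowest precursors. The gene's other probe set lay at the floor in all 25 cells.

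**Figure D1:**
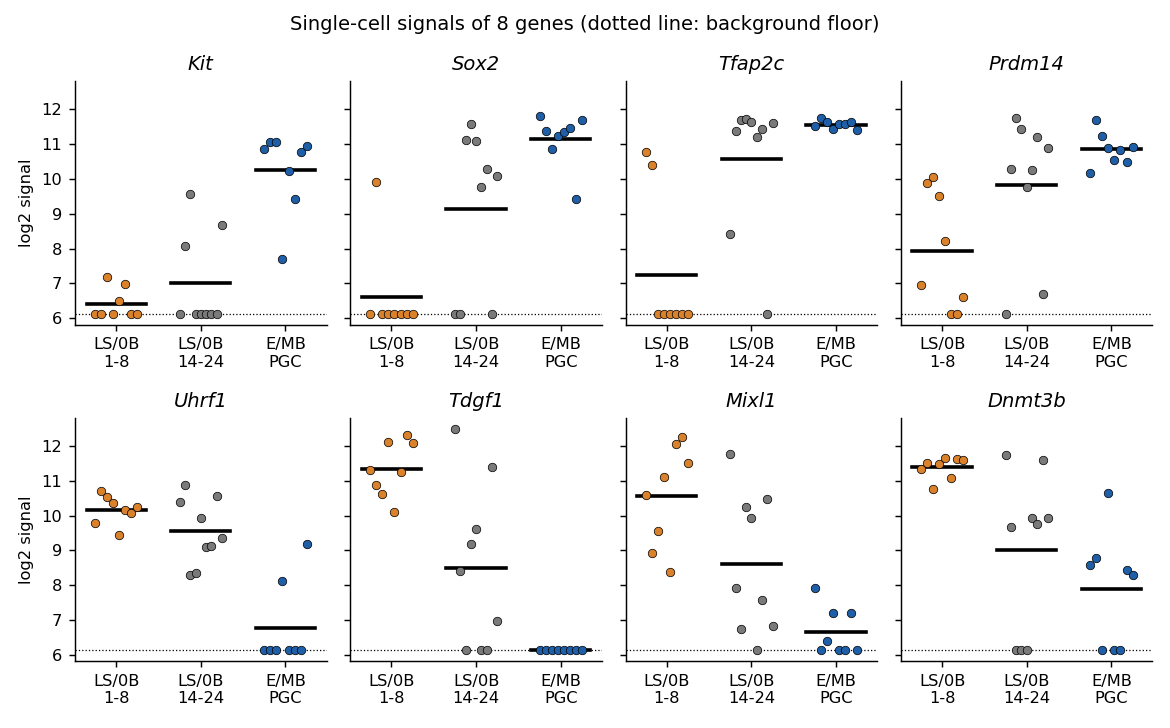
Log2 signal of 8 genes (vertical axis) in single cells of precursors 1 to 8, precursors 14 to 24 and E/MB PGCs (horizontal axis); each point is 1 cell, bars are means and the dotted line is the floor of 6.13. Kit is at 9.43 or more in 7 of 8 PGCs, Sox2, Tfap2c and Prdm14 are already at PGC level in many precursors 14 to 24, and Uhrf1 is kept in every precursor of both sets.

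The same genes were read at the earlier and later stages of the series. Kit averaged 6.44 ± 0.58 in pre-streak (PS) epiblast, 6.30 ± 0.40 in Early/Mid-Streak (E/MS) precursors, 6.73 ± 1.06 at LS/0B and 10.25 ± 1.17 at E/MB. It was 10.81 ± 0.27 at the early head fold (EHF) and 11.18 ± 0.33 at E8.25. Uhrf1 lay at 10.01 ± 0.67, 9.60 ± 0.61 and 9.84 ± 0.78 over the first 3 stages and at 6.76 ± 1.20, 6.66 ± 0.67 and 7.16 ± 1.45 over the last 3. Neighbouring stages on the same side of the LS/0B to E/MB step differed by less than 1 SD for Uhrf1. Sox2 began at 9.71 ± 1.64 in epiblast, was lower at E/MS (7.89 ± 2.43) and LS/0B, and stood at 11.15 ± 0.75 in E/MB PGCs. In posterior mesoderm of the E/MB stage, Sox2 was detected in 0 of 10 cells, Kit in 1 and Uhrf1 in 9.

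**Figure D2:**
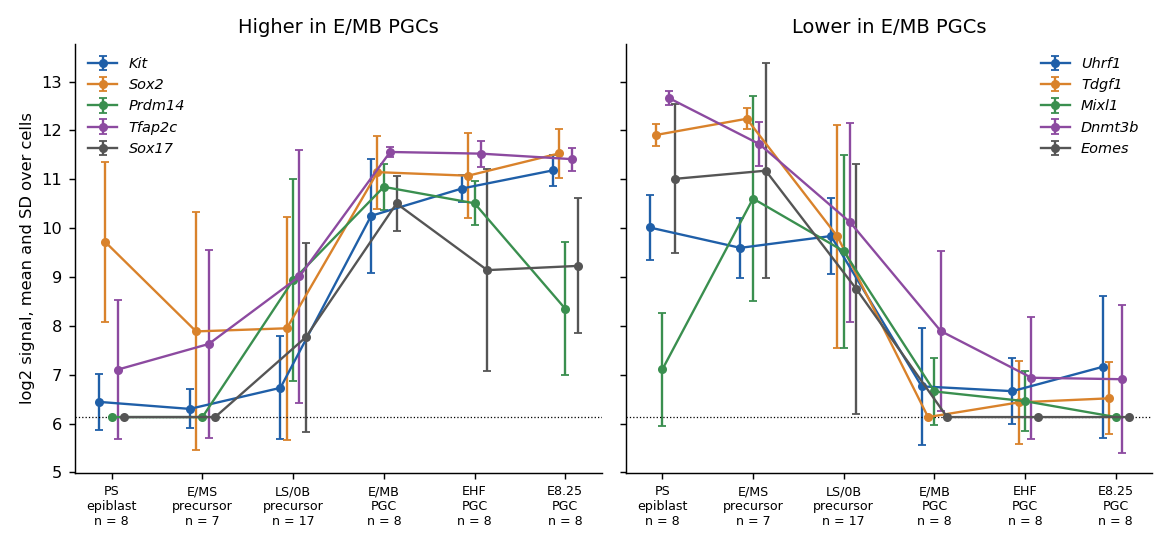
Mean log2 signal with SD over cells (vertical axis) for 5 genes higher and 5 genes lower in E/MB PGCs, across 6 stages of the wild-type lineage (horizontal axis, number of cells given); the dotted line is the floor. Kit and Uhrf1 differ most between LS/0B and E/MB, whereas Tdgf1, Dnmt3b and Eomes are already spread widely among LS/0B cells.

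The germ cell specification list had 8 of 12 measured members higher and 0 lower, with a median of 1.76. Without the genes used for selection, 5 of 9 were higher and 0 lower, with a median of 1.91. Stella was a criterion for the PGCs alone, so genes that go with Dppa3 may also differ through selection. That part was not tested. Of the 5 higher genes, Kit was a given marker and was described above. Tfap2c, the AP-2 gamma factor, was uniform in PGCs at 11.56 ± 0.11 (11.39 to 11.74) and ranged from 6.13 through 10.40 to 11.72 in precursors, with 10 of 17 detected. Its difference was 2.55 on its brightest probe set and 2.05 and 1.66 on the other probe sets. Against precursors 14 to 24 it was 0.98.

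Prdm14, a regulator of pluripotency and epigenetic reprogramming in germ cells, ran from 10.17 to 11.68 in PGCs and from 6.13 through 9.78 to 11.74 in precursors, a difference of 1.91. It was at the floor in all 8 epiblast cells and all 7 E/MS precursors. The 11 precursors with Prdm14 included 4 of the 8 numbered 1 to 8. Alpl, the tissue-nonspecific alkaline phosphatase long used to stain germ cells, differed by 2.05, and Dnd1, an RNA-binding protein needed for germ cell survival, by 1.98. Both were detected in all 8 PGCs, and in 13 and 12 of 17 precursors. Members that stayed within 1 log2 unit were Ifitm1 (0.63), Ifitm2 (0.54), the RNA-binding protein genes Lin28a (-0.23) and Elavl2 (0.21).

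The count for this list depended on the precursors used. Against precursors 1 to 8, 6 of the 9 genes not used for selection were higher (median 2.60), and against 14 to 24, 4 were (median 0.98). With precursors 4, 6, 7 and 8 left out, 5 were higher and the median was 1.34. Of the selected genes, Dppa3 differed by 3.88, Ifitm3 by 1.60, Prdm1 by 1.41 and Pou5f1 by -0.34. Dppa3 was detected in 8 of 17 precursors although it was no criterion for them.

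The later germ cell program, which acts in meiosis and in small RNA defence of the gonadal germ line, was largely silent at both stages. Of 15 measured genes, 8 were detected in no cell of either group, 1 was higher and 0 lower, with a median of 0. The higher gene was Tdrd5, a Tudor domain protein of germ granules, at 9.22 ± 0.65 against 8.11 ± 1.81, and against precursors 14 to 24 it differed by 0.39. Of the PGCs 4 had Ddx4, as did 6 precursors, and no cell had Dazl.

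The pluripotency network differed in both directions, with 2 of 19 members higher, 2 lower and a median of 0.07. Beside Sox2, the TGF-beta family ligand Gdf3 was higher by 1.24, although at 8.14 ± 1.31 its signal in PGCs was modest. Nanog, detected in all 8 PGCs and 15 of 17 precursors, differed by 0.67, less than either group's SD over cells. Sall4 differed by 0.07 on its brightest probe set, and by 1.19 on another that was detected in all 8 PGCs and 15 of 17 precursors. Tbx3, a T-box factor that supports self-renewal, was lower by 1.58 (2.73 and 0.57 against the lower- and higher-numbered precursors) and was kept in 1 PGC of 8 at 9.92. Against precursors 1 to 8, 4 members were higher and 2 lower, and against 14 to 24, 1 was higher and 1 lower.

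In the Sox list 4 of 12 were higher and 1 lower, with a median of 0.06. Sox17, an endoderm factor also expressed in early mouse germ cells, ran from 9.69 to 11.23 in PGCs and from 6.13 through 6.13 to 11.03 in precursors. It was at the floor in all epiblast cells and E/MS precursors, and its difference was 2.74 (4.03 and 1.58 against the lower- and higher-numbered precursors). Sox3, a close relative of Sox2, was higher by 2.16, and Sox13 by 1.08. Sox11, which has roles in neural and mesenchymal progenitors, was lower by 1.67 and was kept in 1 of 8 PGCs. Against precursors 14 to 24, 2 of the Sox genes were higher, Sox2 and Sox17.

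The 15 largest positive differences, taken among genes that 75% or more of the PGCs expressed, included several genes of metabolism, transport and signalling. AU015836 was at 11.10 ± 0.54 in PGCs and 7.90 ± 2.34 in precursors. Uap1l1, related to the enzyme that makes UDP-N-acetylglucosamine, was at 9.97 ± 0.72 and 6.96 ± 1.24. Slc40a1, the iron exporter ferroportin, was higher by 2.62 and Gstm1, a glutathione S-transferase, by 2.81. Pygl, a glycogen phosphorylase, was higher by 2.48.

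Pdpn, the mucin-type membrane protein podoplanin, was the 1 gene of the 15 with the larger difference against the higher-numbered precursors. It was higher by 2.80 against all 17, by 2.40 against precursors 1 to 8 and by 3.16 against 14 to 24, and only 1 precursor reached the lowest PGC of 9.95. Plcg2, a phospholipase C that acts downstream of receptors, was higher by 2.80 and ranged from 9.84 to 11.06 in PGCs. Phf13, a chromatin-binding PHD finger protein, was higher by 2.51, and Serinc5, a multipass membrane protein, by 2.66. Ddah1, which breaks down methylated arginine, differed by 2.92 on 1 of its 5 probe sets, and by 0.03 to 0.88 on the others.

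**Figure D3:**
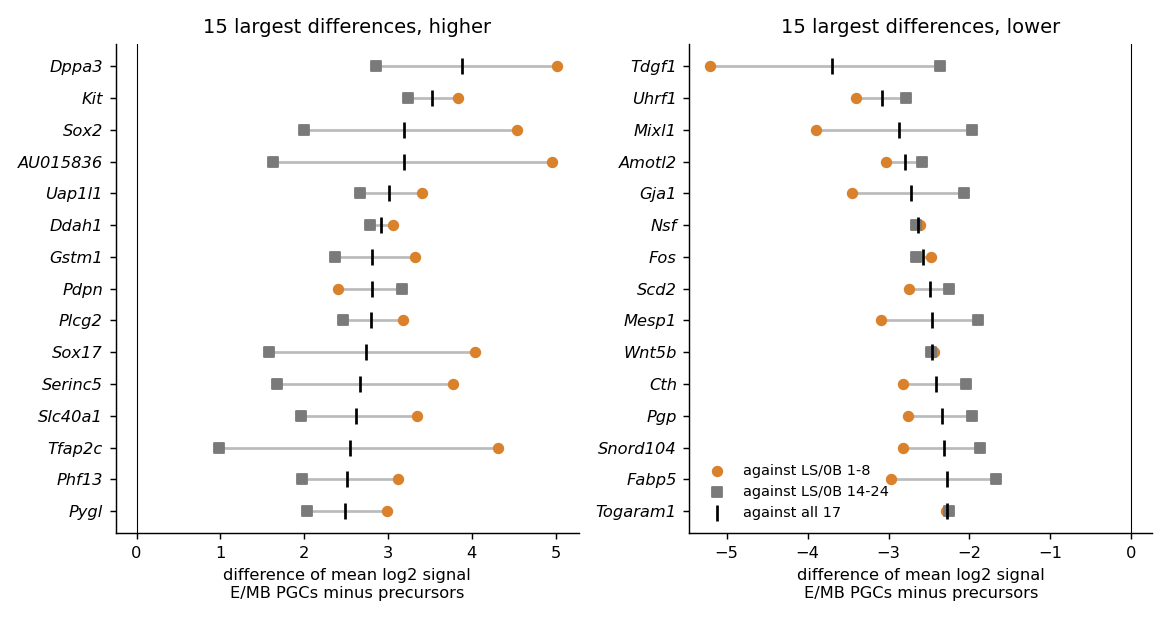
Differences of mean log2 signal (horizontal axis) between the 8 E/MB PGCs and precursors 1 to 8 (circles), 14 to 24 (squares) or all 17 (bars) for the 15 genes with the largest positive and the 15 with the largest negative differences. All 30 keep their sign against both sets, which follows largely from their choice by size against all 17. Of the 15 higher genes, 14 are nearer to 0 against precursors 14 to 24. Values are of brightest probe sets, and another probe set of Togaram1 went the other way.

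Tdgf1 (Cripto), the membrane co-receptor for Nodal, had the largest negative difference. It lay at the floor in all 8 PGCs and ran from 6.13 through 10.62 to 12.49 in precursors, where 14 of 17 had it. No PGC was above its detection limit, so the signal lay at least 3.72-fold lower, a bound taken against that limit. All 8 precursors numbered 1 to 8 read 10.10 or more, while 4 of the 9 numbered 14 to 24 read 6.97 or less. In the earlier stages it was higher still, 11.91 ± 0.23 in epiblast and 12.24 ± 0.22 in E/MS precursors. Most of the primed epiblast and Nodal list differed little. Of 15 members, 2 were lower (the other being Dnmt3b) and 0 higher. Nodal itself differed by 0.15, and the Nodal-responsive factor Foxh1 by -0.51.

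Among primitive streak and nascent mesoderm genes 6 of 18 were lower and 1 higher, with a median of -0.61. Mixl1, a homeobox gene of the streak, had a highest PGC of 7.91 and ran from 6.13 through 9.92 to 12.25 in precursors, a difference of -2.87. Eomes, the T-box gene needed for mesoderm and endoderm to leave the streak, was at the floor in all 8 PGCs and detected in 10 of 17 precursors. Its signal in PGCs was lower by a bound of at least 1.78-fold. The difference was -2.62 on its brightest probe set and -1.80 on the other. Mesp1, which marks the first mesoderm, differed by -2.46, and PGC 4 kept it at 12.02 while the next PGC read 8.96.

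Sp5, a Wnt target of the streak, was lower by 1.89, and Lhx1 by 1.16. Gata6 was lower by 1.13 on its brightest probe set, but differed by 0.25 on another, and by -0.50 with precursors 4, 6, 7 and 8 left out. Evx1, a posterior streak homeobox gene, was kept by all 25 cells at a difference of -0.39. Cdx2, a caudal factor, was the higher gene of the list at 1.14, and its difference against precursors 14 to 24 was 0.13. With precursors 4, 6, 7 and 8 left out, the list had 5 lower and 0 higher.

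Of 24 Hox genes, 2 were lower and 0 higher, and 11 were detected in no cell of either group. They were Hoxb2, detected in 7 of 17 precursors and in 0 of 8 PGCs, and Hoxb1, which marked other E/MB groups and is no result here, detected in 11 and 0. Hoxb2 differed by -1.61 against precursors 1 to 8 and by -0.70 against 14 to 24. In the allantois and lateral mesoderm list, 2 of 15 genes were lower and 1 higher. Aplnr, the apelin receptor of migrating mesoderm, was at the floor in all PGCs and detected in 8 of 17 precursors, where it reached 12.19. Isl1, a lateral mesoderm homeobox gene, was lower by 2.13 and was kept in PGCs 4 and 8. Msx1, a BMP target, was the higher member, at 11.59 ± 0.49 against 9.84 ± 1.51, while Hand1 differed by -0.32.

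Of 12 genes of mesenchymal cells 4 were lower and 0 higher, with a median of -0.51. Pdgfra and Cdh11, a growth factor receptor and a cadherin of mesenchyme, were at the floor in all 8 PGCs and detected in 8 and 7 of 17 precursors. N-cadherin (Cdh2) was lower by 1.56, and the repressor of epithelial genes Snai1 by 1.23. Fn1 differed by 0.05 at 12.08 in PGCs, and by -0.79 on its other probe set. Vim differed by 0.47, which was 1.57 against precursors 1 to 8 and -0.50 against 14 to 24, so its sign depended on the set. This count depended on the precursors with short lys cDNA. With precursors 4, 6, 7 and 8 left out, 1 of 12 was lower and the median was -0.35, and against precursors 14 to 24, 3 of 12 were.

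Of 13 epithelial genes 3 were higher and 1 lower, with a median of 0.05. Esrp1, an epithelial splicing regulator, was higher by 1.84, the claudin gene Cldn7 by 1.64 and the protease inhibitor gene Spint2 by 1.04. Krt8 was lower by 1.08. E-cadherin (Cdh1), which all 8 PGCs expressed at 9.98 to 11.24, differed by 0.76 (1.32 and 0.26 against the lower- and higher-numbered precursors). Epcam differed by 0.48, by 1.21 against precursors 1 to 8 and by -0.18 against 14 to 24. Against precursors 1 to 8, 6 of the 13 were higher and 1 lower, and against 14 to 24, 1 was higher and 0 lower. The share of all genes that was higher moved the same way, from 5.62% against precursors 1 to 8 to 2.08% against 14 to 24. The share that was lower was 3.19% and 3.63%. With precursors 4, 6, 7 and 8 left out, 1 was higher and 0 lower.

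**Figure D4:**
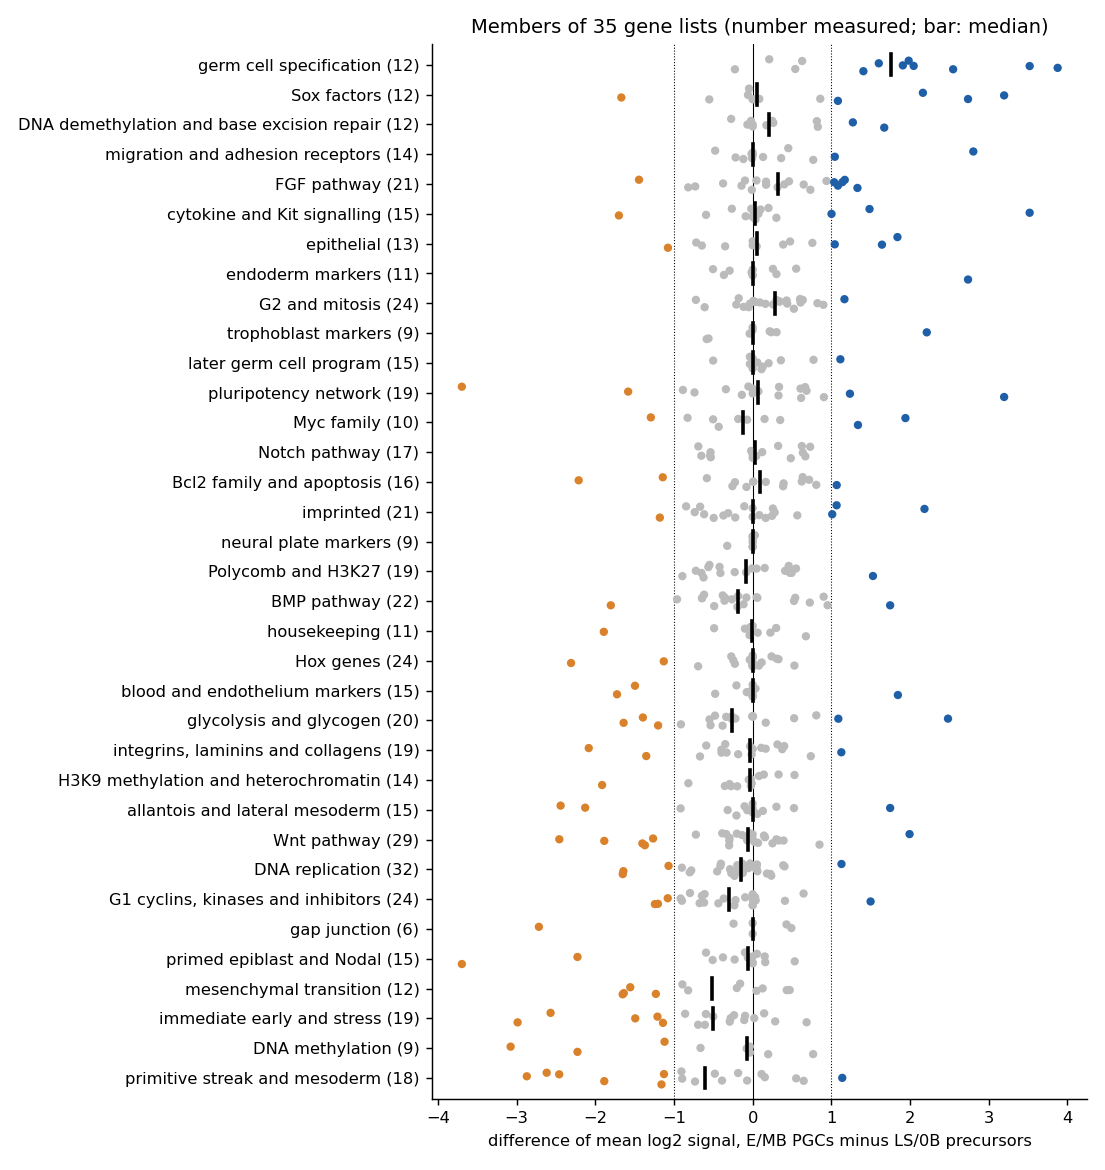
Difference of mean log2 signal between E/MB PGCs and LS/0B precursors (horizontal axis) for the members of 35 gene lists (rows, with the number of measured members); each point is 1 gene, blue points are higher and orange points lower by at least 1, and bars are medians. Germ cell specification genes lie to the right with a median of 1.76 and streak genes to the left with a median of -0.61, while most other lists centre near 0 with single members far out.

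Of 9 genes that write, keep or read DNA methylation, 3 were lower and 0 higher, with a median of -0.08. Against precursors 1 to 8, and against those without Xist, 3 were lower and 2 higher, and against 14 to 24, 2 were lower and 0 higher. Beside Uhrf1, the de novo methyltransferase Dnmt3b was at 7.89 ± 1.63 in PGCs and 10.12 ± 2.03 in precursors. Precursors 1 to 8 all read 10.77 or more, 3 of those numbered 14 to 24 lay at the floor, and PGC 4 kept it at 10.65. The difference was -3.49 against the first set and -1.11 against the second. On its other probe set, detected in 3 PGCs and 8 precursors, Dnmt3b differed by -0.81, under the size counted. Dnmt3b had been at 12.66 ± 0.14 in epiblast and was at 6.91 ± 1.51 at E8.25. Dnmt3a was lower by 1.12 on its brightest probe set, but its other 4 probe sets lay between -0.54 and 0.52. Dnmt1, the maintenance enzyme, was uniform at 10.58 ± 0.24 and 10.61 ± 0.37. Uhrf2, a relative of Uhrf1, was detected in all 8 PGCs and differed by 0.77, by 1.83 against precursors 1 to 8 and by -0.17 against 14 to 24.

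Of 12 genes for active demethylation and base excision repair, 2 were higher and 0 lower, with a median of 0.21. Parp1, which senses strand breaks, was at 11.59 ± 0.45 against 10.32 ± 1.26 on its brightest probe set, a difference of 1.27. Its 2 other well-detected probe sets differed by 0.63 and 0.17. Gadd45a, a stress gene with proposed roles in demethylation, was on in 7 PGCs and 4 precursors, a difference of 1.67. The dioxygenase gene Tet1 differed by 0.83, by 1.88 against precursors 1 to 8 and by -0.10 against 14 to 24.

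Among 14 genes for H3K9 methylation and heterochromatin 1 was lower and 0 higher. That gene was Ehmt1 (GLP), the partner of G9a, at 8.13 ± 1.88 in PGCs against 10.05 ± 1.15. It was detected in 5 of 8 PGCs, where the cells ranged from the floor to 10.83, and in 16 of 17 precursors. G9a itself (Ehmt2) differed by 0.14. Of 19 Polycomb genes 1 was higher, Cbx7 at 1.53 (2.39 and 0.76 against the lower- and higher-numbered precursors), and 0 were lower. Ezh2, the H3K27 methyltransferase, differed by -0.23.

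Of 32 DNA replication genes 3 were lower and 1 higher, with a median of -0.15. Gins2, of the helicase complex, was lower by 1.65 (0.90 against precursors 14 to 24), Rrm2, which makes deoxynucleotides, by 1.64, and Cdc6 by 1.07. The licensing factor Cdt1 was higher by 1.13. Mcm7 differed by 0.06 and Pcna by -0.41. Of 24 genes of G2 and mitosis 1 was higher, Cenpf at 1.17 (0.55 against precursors 14 to 24), and 0 lower, with a median of 0.28. That median was 0.59 against precursors 1 to 8 and -0.017 against 14 to 24, and Mki67 and Top2a differed by 0.09 and 0.01.

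Of 24 G1 regulators, 3 were lower and 1 higher, with a median of -0.30. Cyclin D1 (Ccnd1) was lower by 1.20, E2f3 by 1.24 and Cdk6 by 1.08. Ccnd1 was lower by 0.73 against precursors 14 to 24, while E2f3 and Cdk6 were lower by 0.43 and 0.59 against 1 to 8. Rb1, the retinoblastoma gene, was higher, on in 5 of the PGCs and 3 of the precursors. In the Bcl2 and apoptosis list 2 of 16 were lower and 1 higher. Pmaip1 (Noxa), a death-promoting member, was at the floor in all 8 PGCs and detected in 10 of 17 precursors, and the survival gene Mcl1 was lower by 1.14 on its brightest probe set, while its other 5 lay between -0.38 and 0.11. Bid was higher by 1.07 on its brightest probe set and differed by 0.03 on another.

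In the BMP pathway, 1 of 22 genes was higher (Msx1) and 1 lower. The lower gene was Smad1, which carries the signal to the nucleus, at 7.70 ± 1.58 in PGCs and 9.50 ± 1.56 in precursors. It was detected in 5 of 8 PGCs. Its partner Smad5 differed by -0.96, and the target genes Id1 and Id3 by 0.90 and 0.73, all under the size of 1 used for counting.

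Of 29 Wnt pathway genes 5 were lower and 1 higher, with a median of -0.06. The ligand Wnt5b was at 7.60 ± 1.26 in PGCs and 10.05 ± 1.26 in precursors, with closely similar differences of -2.44 and -2.47 against the lower- and higher-numbered precursors. Wls, which carries Wnt ligands to the surface, was lower by 1.27, the receptor Fzd7 by 1.37 and the secreted inhibitor Dkk1 by 1.40. These were 0.89, 0.94 and 0.84 against precursors 14 to 24. Notum, an extracellular enzyme that inactivates Wnt ligands, was the higher gene, at 9.50 ± 0.85 against 7.50 ± 1.50. Beta-catenin (Ctnnb1) differed by 0.07. With precursors 4, 6, 7 and 8 left out, 3 were lower, and against precursors 14 to 24, 2 were.

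In the FGF list 5 of 21 genes were higher and 1 lower, with a median of 0.32. The higher genes were the ligand Fgf17 (1.33), the ETS factor Etv5 (1.14) and the feedback inhibitors Spry2 (1.17), Spred1 (1.08) and Spred2 (1.04). These counts rest on brightest probe sets, since others detected in both groups differed by 0.40 for Etv5, 0.13 for Spred2 and -0.32 to 0.92 for Spred1. Spry2 differed by 2.37 against precursors 1 to 8 and by 0.11 against 14 to 24. Fgf3 was lower by 1.44 and at the floor in all 8 PGCs, a bound of at least 1.12-fold, and Fgf8 differed by 0.65 (1.41 and -0.03 against the lower- and higher-numbered precursors). With precursors 4, 6, 7 and 8 left out, 2 were higher and the median was 0.08. Against precursors 14 to 24, 1 was higher and the median was -0.033. Of 17 Notch pathway genes 0 were higher and 0 lower.

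Of 15 cytokine and Kit signalling genes, 3 were higher and 1 lower, with a median of 0.03. Beside Kit, the feedback inhibitor Socs2 was higher by 1.49, and the kinase gene Jak2 was just past the size counted. Socs2 differed by 0.40 and Jak2 by 0.97 against precursors 14 to 24, where Kit was the 1 higher gene of the list. The LIF receptor gene Lifr was lower by 1.70 and was kept in 2 of 8 PGCs. Among 10 Myc family genes, Mycl was higher by 1.94 and the Myc antagonist Mnt by 1.34, while Myc was lower by 1.29. Mycl was at 10.13 ± 0.32 in PGCs, Myc was at the floor in all of them, and Mycn differed by 0.15. Mycl differed by 0.82 and Myc by -0.87 against precursors 14 to 24.

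Immediate early genes, which cells induce within minutes of growth factors or handling, numbered 19, of which 5 were lower and 0 higher, with a median of -0.50. Egr1 was at the floor in all PGCs but 1, which read 8.58, and ran from 6.13 through 10.32 to 12.51 in precursors, a difference of -2.99. For Fos, 3 PGCs and 14 precursors passed their limits, and the difference was -2.57. Jun was lower by 1.49, Fosb by 1.21 and Dusp1 by 1.14 (0.36 against precursors 1 to 8), while Nr4a1 differed by 0.29. The list gave 6 lower genes against each of the lower- and the higher-numbered precursors, and 5 with precursors 4, 6, 7 and 8 left out. Fos was detected in 2 of 8 epiblast cells, 2 of 7 E/MS precursors and 5 of 10 posterior mesoderm cells, so the LS/0B precursors had the highest share among these groups. The part of handling in these values was not tested.

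Of 20 glycolysis and glycogen genes 3 were lower and 2 higher, with a median of -0.27. Glucose transporters went in opposite directions, with Slc2a3 at 12.83 ± 0.17 in PGCs against 11.74 ± 1.21 and Slc2a1 at 9.94 ± 1.37 against 11.14 ± 0.65. Hexokinase 2 (Hk2) was lower by 1.64 and the lactate exporter Slc16a3 by 1.40 (0.60 against precursors 14 to 24). Ldha, the lactate dehydrogenase subunit, was at 12.52 to 12.86 in PGCs and 12.84 to 13.24 in precursors.

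Among 21 imprinted genes 3 were higher and 1 lower, with a median of 0. Plagl1 (Zac1), a zinc finger regulator, ran from 6.13 through 10.42 to 12.37 in PGCs, a difference of 2.18. Ndn was higher by 1.07 (0.50 against precursors 14 to 24) and the non-coding RNA Meg3 by 1.01, and Nnat was lower by 1.18.

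Genes for contact with neighbouring cells and matrix gave single large differences. Gja1, the main connexin of the early embryo, was at the floor in all 8 PGCs and ran from 6.13 through 9.16 to 10.88 in precursors, a bound of at least 1.95-fold. It was the 1 lower gene of 6 in the gap junction list, with 0 higher. Of 19 integrin, laminin and collagen genes, the integrin Itgb5 was lower by 2.08, Col9a1 by 1.35, and Col18a1 was higher by 1.13. Of 14 migration and adhesion receptors, Pdpn and the ephrin Efna1 (1.04) were higher and 0 were lower, and the chemokine receptor gene Cxcr4 was at the floor in all 25 cells. Efna1 differed by 0.91 against precursors 14 to 24, and by 0.17 on its other probe set.

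The 15 largest negative differences, taken among genes that 75% or more of the precursors expressed, included several genes of metabolism and of membranes. Scd2, a desaturase of fatty acids, was at 8.92 ± 1.98 against 11.41 ± 0.61, and Fabp5, a fatty acid carrier, at 8.78 ± 2.05 against 11.06 ± 1.45. Cth, which makes cysteine, was lower by 2.41, and the phosphatase gene Pgp by 2.34, with -0.43 on its other probe set. Amotl2, a junction-associated inhibitor of Yap, was at 6.52 ± 0.73 against 9.32 ± 1.11. Nsf, which drives vesicle fusion, was lower by 2.64, though its other probe sets were near background. The small nucleolar RNA Snord104 was lower by 2.32. Togaram1 was lower by 2.27 on its brightest probe set and higher by 1.09 on another, so no direction is given for it.

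Lists of markers of other cells that the fragments could hold had mean levels near the floor of 6.13, though single markers were strong in some cells. Of 11 endoderm markers, 1 was higher (Sox17) and 0 lower, and Foxa2 was on in 2 PGCs and 0 precursors. The mean level of that list was 6.56 to 7.01 in PGCs and 6.19 to 6.95 in precursors. Of 9 trophoblast markers, Rhox9, a homeobox gene also known from germ cells, was higher by 2.21, being on in 5 PGCs and 1 precursor, and the list's mean was 6.13 to 7.23 in PGCs and 6.13 to 7.44 in precursors. Of 15 blood and endothelium markers, Lmo2 was higher by 1.85, and Etv2 and Kdr were lower by 1.72 and 1.50 and at the floor in all 8 PGCs. Etv2 was detected in 8 of 17 precursors, up to 12.77, and Kdr in 6, up to 11.35. Lmo2 was detected in 7 of 8 PGCs, up to 11.31, and in 9 precursors, up to 10.96. That list's mean was 6.13 to 6.52 in PGCs and 6.15 to 7.51 in precursors, and 8 of the 15 were detected in no cell. Of 9 neural plate markers, 7 were detected in no cell. Housekeeping genes had 1 lower of 11 and 0 higher, with a median of -0.01. That gene was the X-linked Hprt, at 8.52 ± 1.16 against 10.41 ± 0.82, and the difference was -1.99 against the precursors without Xist.

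Among the 15 genes with the largest positive differences, which had to be detected in most PGCs and so could vary less there, the median SD over cells was 0.57 in PGCs and 1.61 in precursors, and 12 of the 15 had the larger SD in precursors. Over all 539 higher genes these medians were 1.08 and 1.24, and over the 15 largest negative differences 1.26 and 1.24. PGCs had 14 or 15 of the 15 genes with the largest positive differences detected, and precursors between 1 and 12. The median was 3.5 in precursors 1 to 8 and 11 in 14 to 24. Fuller detection in PGCs follows from how these 15 genes were chosen and is no result. Precursors 18 and 24 each had 10 of the 15 at or above the lowest PGC, while precursors 4, 5, 6 and 23 had 1. For Ddah1 the lowest PGC lay at the floor, so every precursor's count includes that gene, whether it was detected or not.

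The mean level of the 9 germ cell genes not used for selection was 10.72 ± 0.25 in PGCs, from 10.36 to 11.07. It was 9.25 ± 1.02 in precursors, from 7.98 to 10.77, so 4 precursors lay within the PGC range. Over the 17 precursors this mean ran against the mean of the mesenchymal genes, with a Pearson correlation of -0.80 and a Spearman correlation of -0.84. Within precursors 1 to 8 the Pearson value was -0.84 (n = 8) and within 14 to 24 it was -0.99 (n = 9). These points share their arrays and the amplification of each cell. The Pearson correlation of the germ cell mean with the number of probe sets detected was 0.29 over all 17 precursors. It was -0.10 within precursors 1 to 8 and -0.24 within 14 to 24, so its sign turned within both sets. Precursors 4, 6, 7 and 8, with short lys cDNA, had mesenchymal means of 8.62 to 9.38. Precursor 14 had the highest at 9.64, with a 5′ minus 3′ value of -1.29 for lys and -0.85 for Gapdh, the latter below every PGC. The part of cDNA length in these means was not tested.

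**Figure D5:**
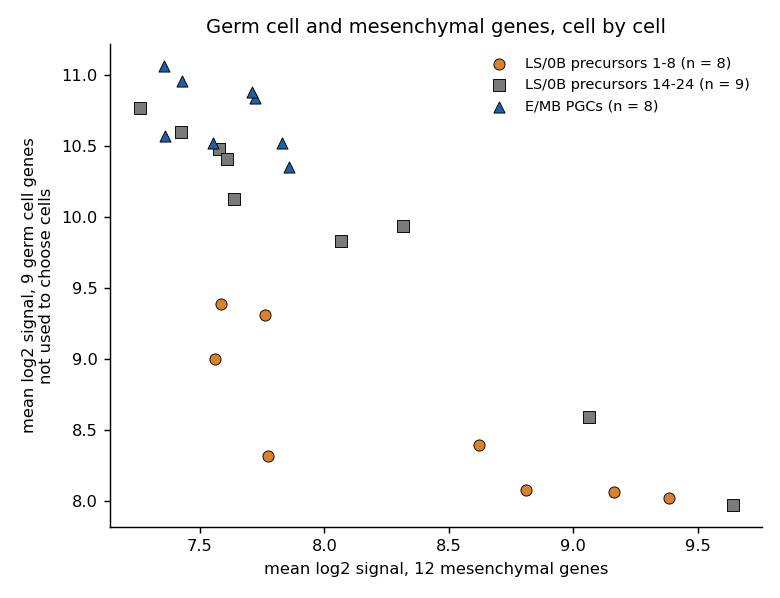
Mean log2 signal of the 9 germ cell genes not used to choose cells (vertical axis) against that of 12 mesenchymal genes (horizontal axis); each symbol is 1 cell. PGCs lie at 10.36 or more with low mesenchymal means, and precursors spread from there to 7.98 with means of up to 9.64.

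The precursor set bore more on the higher than on the lower genes. Of the 539 higher genes, 504 passed the same size against precursors 1 to 8 alone and 297 against 14 to 24 alone. Of the 484 lower genes, 382 and 365 were lower by that size against the same sets. Among the PGCs, cell 4 had the highest Mesp1, Dnmt3b and Isl1 of the 8, the lowest Kit and the lowest germ cell mean (10.36), while its Tfap2c (11.43) and Sox2 (11.24) lay within the range of the others. Kit is a member of that mean and lowers it in this cell, so the low mean is no separate sign of a low germ cell program.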

How the data were processed

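Single-cell cDNA of 25 cells (8 E/MB PGCs, 17 LS/0B precursors) and, for levels by stage, of other cells of the series was measured on arrays of 45101 probe sets, 1 cell per array. The deposited values are linear intensity signals that the authors made with MAS5, per the submitters' processing notes; its version, its scaling target and how low signals were treated are not given in the sources, and the lowest deposited value is 1. GEO's platform annotation gave 1 gene symbol for 34945 probe sets, several for 932 and none for 9160, and 64 are controls.

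From there, signals were raised to a floor (the 90th percentile of 126 probe sets of olfactory, vomeronasal, taste and keratin-associated receptor or structural genes), put on a log2 scale and reduced to the probe set with the highest mean over 106 cells for each of 18193 genes. The difference is the mean of the PGCs minus that of the precursors, and the SD is over cells. A size of 1 log2 unit was used for counting and is no test. The number of cells limits the precision, and pseudoreplication bars p-values, since no embryo is named. A bound ("at least N-fold") sets the brighter group's mean against the dimmer group's detection limits where 0 of its cells were detected.

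Named genes were the 15 largest differences each way among genes that 75% or more of the higher group's cells expressed, the markers, the genes used to choose cells, and members of 35 lists. The members and lists were chosen with earlier results of these data known. The calculation was tested on simulated data. Alternatives were the floor, probe sets, normalization, medians, precursor subsets and leaving out each cell; leaving out precursors 4, 6, 7 and 8 and choosing probe sets without the floor were added after seeing the data. Promoter windows came from RefSeq on GRCm38.p6, which held them for 9 of the 15 largest positive and 10 of the 15 largest negative differences. Python 3.11.15, numpy 2.4.6, pandas 2.3.3 and matplotlib 3.10.9 were used.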

Additional observations from a re-analysis of the deposited data

Results flagged for a closer look

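Among the 8 PGCs, 1 cell lay far from the other 7 (by Dixon's ratio of the gap to the nearest cell over the whole range) in 27 of 191 genes and list means examined; chance gives about 1 in 20 such groups for normally spread values, and values at the floor do not spread so.

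In 8 genes the other 7 PGCs were at the floor and 1 cell kept a detected signal. These were Jun at 9.05 and Egr1 at 8.58 in PGC 3, Fzd7 at 7.15 and Lhx1 at 8.42 in PGC 5, and Dkk1 at 8.83 in PGC 6. In PGC 8 they were Sox11 at 9.19, Tbx3 at 9.92 and the imprinted gene Nnat at 10.63.

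In 7 further genes 1 cell was high over low neighbours. Mesp1 read 12.02 in PGC 4, against 8.96 in the next cell. PGC 5 was highest for Cdh2 at 9.22, Col9a1 at 9.19 and Nsf at 9.53. Cdk6 was at 9.44 in PGC 1, Sp5 at 9.04 in PGC 7 and Dnmt3a at 8.59 in PGC 8. Snai1 at 6.60 and E2f3 at 6.82, both in PGC 3, also stood apart but lay under that cell's detection limit, and 0 PGCs had either gene detected.

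In 8 genes 1 cell was low. Sox2 was at 9.43 in PGC 7, Socs2 at 7.79 in PGC 4, Lin28a at 8.53 and Meg3 at 11.68 in PGC 3. PGC 5 was lowest for Col18a1 at 6.16 and Ifitm2 at 10.58, and PGC 8 for Parp1 at 10.60 and Serinc5 at 9.18.

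The mean of the G2 and mitosis genes was 8.82 in PGC 8 and 10.35 or more in the other 7 PGCs. That of the FGF genes was 7.46 in PGC 6 and 7.87 or more in the others.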

How the results depend on the processing

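No paired analysis was possible because replicate numbers only name cells and no result comes from a test. Of 420 values of list medians under 12 other settings 404 moved by less than the spread over cells, and of 1872 values of named genes 1799 did. The count of 539 higher and 484 lower genes was 1845 and 1903 with no floor, 282 and 231 with the floor doubled, 281 and 238 with the mean of a gene's probe sets, and 912 and 828 with medians over cells. The counts were 953 and 570 against precursors without Xist, 1022 and 581 against 1 to 8, and 378 and 661 against 14 to 24, where lower genes outnumber higher ones. Non-overlapping genes (1 higher, 4 lower) numbered 34 and 37 against precursors without Xist, 52 and 48 against 1 to 8, and 21 and 11 against 14 to 24, fewer cells being compared. Higher ones numbered 2 with no floor, 3 with hybridisation-control scaling and 3 without precursors 4, 6, 7 and 8. Lower ones numbered 2 with the floor doubled, 2 with quantile normalization, 1 with centring and 0 with hybridisation-control scaling. With no floor, list medians moved to -1.88 for streak, -1.25 for mesenchymal, -0.78 for DNA methylation, -0.55 for G1, -0.54 for primed epiblast and -0.34 for blood genes. They moved to 0.29 for later germ cell and for Bcl2 family genes, 0.46 for pluripotency, 0.45 for demethylation and 0.38 for gap junction genes. With medians over cells the streak and immediate early medians were 0. Against precursors 14 to 24 the median was -0.62 for DNA methylation, and it turned sign to -0.017 for G2 and mitosis and -0.033 for FGF genes. Gata6 turned to 0.25 with the probe set chosen without the floor. The cause of these shifts was not tested. The 99th percentile limit enters no count of differences.

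Of 116 named genes past 1 log2 unit, 76 were past it against precursors 14 to 24, 86 without precursors 4, 6, 7 and 8, and 88 whichever cell was left out. The number was 79 with the mean of a gene's probe sets, 88 with the floor doubled and 86 with medians over cells. The value moved by over 1.5 times for Ccnd1 (-0.79 without PGC 2) and Col18a1 (1.70 without PGC 5). With 1 cell left out, non-overlapping genes numbered 1 to 4 (higher) and 4 to 8 (lower), both most without PGC 8. Signals raised to the floor have no order, so differences of dim genes may be understated. Whether differences among signals under the floor are real was not tested.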
